A study of Mus musculus with 18 samples.

Results

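Co-culture given enzalutamide and isoliquiritigenin together was compared with untreated co-culture. The comparison took the 3 RNA-seq libraries of T23 cells cultured with fibroblasts and both drugs, and the 3 libraries of T23 cells cultured with wild-type fibroblasts and no drug, which is 6 of the 18 libraries of the series, chosen by their labels. T23 is a mouse prostate adenocarcinoma line. The 3 libraries of T23 cells with fibroblasts and enzalutamide alone served as the intermediate group, so that genes moved by enzalutamide could be followed to the level reached with both drugs. The series asks how loss of the matrix protein SPARC in the stroma relates to neuroendocrine differentiation of prostate cancer. Its other 3 groups were T23 cells alone, T23 cells with enzalutamide, and T23 cells with fibroblasts lacking Sparc. They entered the filter on low counts, the scaling and the estimate of the spread between replicates. T23 cells alone also gave a reference level for fibroblast markers.

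Enzalutamide is a second-generation antiandrogen used against prostate cancer. Isoliquiritigenin is a chalcone from liquorice root that has been described as an inhibitor of GRP78, the endoplasmic reticulum chaperone encoded by Hspa5, and as an electrophile that acts on several other proteins. Fibroblasts around prostate tumours secrete matrix and growth factors, and the response of a tumour to androgen blockade depends in part on them. In mammalian cells, genes of glycolysis and oxygen sensing are switched on by hypoxia-inducible factors, lysosomal genes by factors of the TFEB family, and genes of detoxification by NRF2.

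The labels do not give the doses, the duration of treatment, the vehicle, or whether fibroblast RNA was part of the samples. The descriptions of both enzalutamide co-culture groups name human fibroblasts. In the titles, however, both groups share the fibroblast name of the untreated co-culture, whose description says wild type. This conflict could not be settled from counts on the mouse genome. None of the 18 libraries had isoliquiritigenin without enzalutamide. All values below therefore compare the drug-pair group with the untreated group, and follow a step from enzalutamide alone to the pair. Nothing in the labels says that replicates came from separate cultures, so p-values measure only the spread between these libraries, which may be technical.

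Library totals ran from 18.8 to 26.7 M counts over the 9 co-culture libraries. The sample index in the titles restarts once within the series, which splits the libraries into 2 numbering series. All 3 untreated libraries carry numbers of the first and all 3 drug-pair libraries numbers of the second, so that the numbering series and the drug pair cannot be told apart from these 6 libraries alone. Only the enzalutamide co-culture spans both, with replicate 1 in the first and replicates 2 and 3 in the second. A fit with the series as a term therefore rests on that one group. Of the epithelial markers, Epcam had 0 to 8 counts and Krt8 2 to 12 in the 9 libraries, whereas Krt7 and Krt19 stood above 11 CPM untreated, and the 18 luminal markers summed to at most 29.2 CPM. Of 20 fibroblast markers, 16 were at or above 10 CPM (counts scaled to a common library total) when T23 cells grew alone, so these markers do not tell the cultured fibroblasts from T23. The 16 macrophage and leukocyte markers, with Ptprc at 0 to 2 counts, summed to 14.3 to 15.3 CPM untreated, 16.5 to 18.3 with enzalutamide and 19.9 to 22.6 with the pair, and 1 of the 3 tested was called higher. The 12 endothelial markers, with Cdh5 at 1 to 11 counts, summed to 93.0 to 100.5 CPM untreated. One library outside the 9, replicate 2 of T23 cells with enzalutamide, stood apart in TMM scaling factor (0.685 against 1.00 to 1.04 in the others). Without it 5931 genes were called in the main comparison.

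The drug-pair and untreated co-cultures differed in a large part of the transcriptome. The drugs, the numbering series and a possible difference in fibroblast source cannot be told apart in this comparison. Of 13600 genes tested, 5324 (39.1%) passed an adjusted p of 0.05 in edgeR's quasi-likelihood test, 2614 of them higher (19.2%) and 2710 lower (19.9%) than in untreated co-culture. Most changes were small. Only 602 genes (4.43%) were both called and at least 2-fold apart, 281 higher (2.07%) and 321 lower (2.36%). Among all genes tested, 6867 (50.5%) had ranges that did not overlap between the 3 drug-pair and 3 untreated libraries. With the numbering series as a term, 1849 genes were called (13.6%), 866 higher (6.37%) and 983 lower (7.23%). The standard error of the log2 fold change was larger by a median factor of 1.82 in that fit. There, 1761 genes were called in the same direction as before and 0 in the opposite direction. Of the 602 genes with at least 2-fold changes, 327 were called again and 18 had the opposite sign. For scale, enzalutamide alone called 977 genes in co-culture (7.18%), and the step from enzalutamide to the pair 3599 (26.5%). These contrasts share libraries with the main one. Counts of called list members below are to be read beside 19.2% of all genes called higher and 19.9% lower. With the series term those shares were 6.37% and 7.23%.

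**Figure D1:**
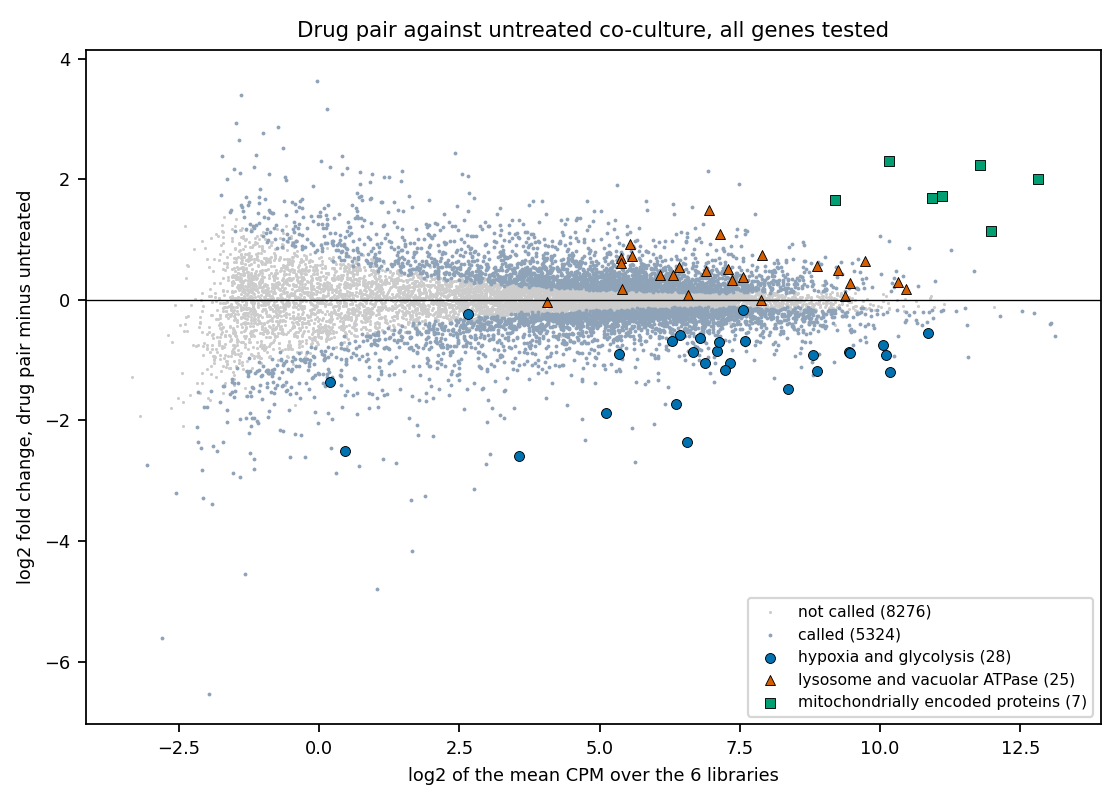
Log2 fold change of the drug pair against untreated co-culture (y axis) by the log2 mean CPM over the 6 libraries (x axis) for each of 13600 genes tested, with called genes in blue-grey and others in light grey. Of the marked lists, 27 of 28 hypoxia and glycolysis genes were called lower, 21 of 25 lysosome genes and 7 of 7 tested mitochondrially encoded genes were called higher.

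Genes of glycolysis and the hypoxia response fell together. Of the 28 listed genes, all tested, 27 were called lower and 0 higher, against 19.9% of all genes tested called lower. Their median log2 fold change was -0.91, beside 0.0015 for all genes tested. With enzalutamide alone the median of the list was -0.37, with 21 members called lower, and the added isoliquiritigenin step had a median of -0.55, with 25 called lower. With the numbering series as a term, 26 of the 28 were called lower and the median was -0.96. The members called lower ran from the glucose transporter through the glycolytic enzymes to lactate dehydrogenase and lactate export.

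Among the enzymes, Pgk1, phosphoglycerate kinase, measured 478, 439.6 and 536 CPM untreated, 357, 312 and 316 with enzalutamide, and 197, 150.0 and 174 with the drug pair. The 3 groups did not overlap, and the pair stood 2.79-fold below untreated (log2 -1.48 ± 0.08 SE, adjusted p = 4.43e-12). Ldha, lactate dehydrogenase A, went from 1564, 1598 and 1704 CPM to 743, 629 and 747, which is 2.30-fold lower (log2 -1.20 ± 0.07, adjusted p = 4.43e-12), with the enzalutamide libraries in between at 1096 to 1159.5. Pfkl, the liver-type phosphofructokinase, was 2.08-fold lower, Aldoa, aldolase A, 1.89-fold, Gapdh 1.68-fold and Pkm, pyruvate kinase, 1.46-fold. Hk2, a hexokinase, was 1.5-fold lower (adjusted p = 8.08e-07). Slc2a1, the glucose transporter GLUT1, was 1.60-fold lower, and Pdk1, the kinase that shuts pyruvate out of the mitochondrion, 3.30-fold lower (adjusted p = 4.03e-10). Eno1 was 2.27-fold lower, but it shares sequence with a near-identical copy, and Gapdh with many pseudogenes, so their counts are uncertain.

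Among the oxygen-sensing and other hypoxia-induced members, Egln3, a prolyl hydroxylase that marks hypoxia-inducible factor for degradation, fell from 141, 152 and 181 CPM untreated to 36.0, 19.6 and 36.1 with the pair, 5.13-fold (log2 -2.36 ± 0.17, adjusted p = 9.07e-11). Ankrd37, a small ankyrin-repeat gene known as a direct hypoxia target, went from 18.2, 18.8 and 23.8 CPM to 4.88, 1.56 and 3.37, 6.00-fold lower (log2 -2.59 ± 0.22, adjusted p = 2.13e-09). For both genes replicate 2 of the pair was the lowest library. Bnip3, a mitophagy receptor, was 3.67-fold lower, and Ndrg1 2.07-fold lower. Vegfa, the angiogenic growth factor, fell less, from 125, 134 and 144 CPM to 90.9, 74.4 and 95.4 (1.55-fold, adjusted p = 7.9e-06). It differed by log2 -0.08 with enzalutamide alone (adjusted p = 0.668). Pfkfb4 was the one member not called, at log2 -0.24 ± 0.12 (adjusted p = 0.135). Car9, at 0.460 to 2.08 CPM, was called lower (adjusted p = 0.000639) but not with the series term (adjusted p = 0.441). The transcript of the factor itself, Hif1a, measured 142 to 155 CPM untreated and 162 to 181 with the pair (1.16-fold, adjusted p = 0.029, or 0.39 with the series term), a call lost without untreated replicate 1 (adjusted p = 0.104) or 2 (0.0791) and without drug-pair replicate 1 (0.126) or 2 (0.0597). Hif1a, Vegfa, Pfkfb4, Car9, Slc2a1 and the enzymes other than Pgk1 and Ldha were named after their values were seen.

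**Figure D2:**
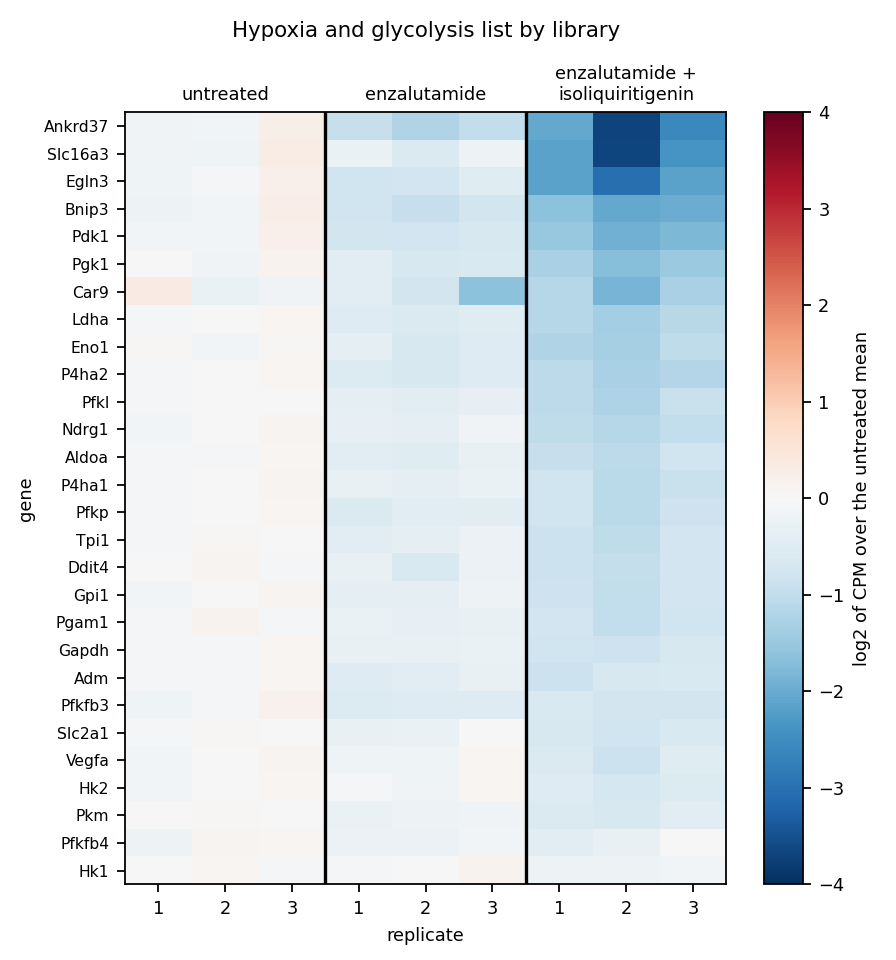
Log2 of each library's CPM over the untreated mean (colour scale) for the 28 hypoxia and glycolysis genes (rows, ordered by fold change) in the 9 co-culture libraries (columns, 3 replicates a group). The drug-pair columns are darkest blue for Ankrd37, Slc16a3 and Egln3, and the enzalutamide columns lie between the other groups for most rows.

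Promoter letters were read for this list because its members moved together. Hypoxia-inducible factors bind the cores ACGTG and GCGTG, and both were searched on both strands in RefSeq windows from 250 bases before to 50 bases after each transcription start (GRCm38.p6). ACGTG occurred in 21 of the 37 windows of the 27 list genes with a window (56.8%), against 19.6% of all windows and 25.3% of windows of genes tested. Among all genes called lower the share was 24.9%, and among genes called higher 25.3%. ACGTG was added to the search after the fall of the list was seen. The list was assembled from genes already tied to glycolysis and hypoxia, so its share was not a test of the drug pair. In the lysosome genes described below, which rose, ACGTG occurred in 11 of 23 windows (47.8%). GCGTG occurred in 56.8% of the list's windows and in 49.9% of those of genes tested. A match is a description of letters, not a binding site. The 250 bases before the start of Ankrd37 and Pgk1 are shown because these genes moved strongly and carry the core more than once. Capitals mark every ACGTG or GCGTG on either strand, so CACGT and CACGC are the same cores read from the other strand, and overlapping matches join into one run. Ankrd37 lies on the minus strand at chr8:45999851-46000100 and has 2 matches to each core in 3 runs. Pgk1 lies on the plus strand at chrX:106186850-106187099, has 2 matches to ACGTG and 0 to GCGTG.
Ankrd37: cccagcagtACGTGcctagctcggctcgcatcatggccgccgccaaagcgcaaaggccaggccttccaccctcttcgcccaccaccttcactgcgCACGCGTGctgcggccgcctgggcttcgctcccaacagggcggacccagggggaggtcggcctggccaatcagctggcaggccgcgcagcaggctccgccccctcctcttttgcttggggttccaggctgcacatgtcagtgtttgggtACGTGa
Pgk1: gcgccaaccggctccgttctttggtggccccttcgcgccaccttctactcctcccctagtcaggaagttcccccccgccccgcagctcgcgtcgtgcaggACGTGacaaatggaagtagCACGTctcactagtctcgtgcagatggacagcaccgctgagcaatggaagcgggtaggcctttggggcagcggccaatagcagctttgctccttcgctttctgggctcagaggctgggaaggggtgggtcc

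Lysosomal genes rose. Of 25 listed, all tested, 21 were called higher and 0 lower, against 19.2% of all genes tested called higher, with a median log2 fold change of 0.48. With the series term 17 were called higher and 0 lower. Gpnmb, a glycoprotein of lysosomes and melanosomes, went from 64.6, 71.6 and 59.3 CPM untreated to 174, 187 and 188 with the pair (2.80-fold, log2 1.48 ± 0.07, adjusted p = 1.9e-13). Its enzalutamide libraries, at 77.7 to 81.0 CPM, lay just above the untreated range. Hexa, the alpha subunit of beta-hexosaminidase, rose from 92.5, 93.6 and 86.6 CPM to 196, 198 and 185 (2.13-fold, adjusted p = 2.01e-13). Atp6v0a1, a membrane subunit of the proton pump that acidifies lysosomes, was 1.91-fold higher, Ctsa, a carboxypeptidase that also protects other lysosomal enzymes, 1.68-fold, and Lamp1, the main lysosomal membrane protein, 1.56-fold (668, 672 and 657 CPM against 1025, 1045 and 1046). In none of these 5 genes, which were chosen by p, did the pair and untreated libraries overlap, as in 50.5% of all genes tested.

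The letters CACGTG, the E-box core contained in the element that TFEB-family factors recognise, were searched in the same windows. They occurred in 9 of 23 windows of the 19 lysosome-list genes with a window (39.1%), against 7.15% of all windows and 9.76% of windows of genes tested. The share was 13.3% among windows of genes called higher and 7.65% among those called lower. CACGTG contains ACGTG on both strands, so the 2 searches are not independent. The list was assembled from known lysosomal genes, so its share was not a test of the drug pair. Lamp1 is shown because the E-box stands 4 times within the 250 bases before its start, plus strand, chr8:13158911-13159160, with capitals marking CACGTG.
Lamp1: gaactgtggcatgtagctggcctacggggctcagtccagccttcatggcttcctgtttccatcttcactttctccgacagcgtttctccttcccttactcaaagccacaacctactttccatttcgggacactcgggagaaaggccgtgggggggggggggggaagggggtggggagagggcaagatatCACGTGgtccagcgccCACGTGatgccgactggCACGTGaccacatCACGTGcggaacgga

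Genes of sterol and fatty acid synthesis, which share control by sterol-regulatory element binding proteins, were mostly higher. Of 22 tested sterol genes (23 listed), 20 were called higher and 0 lower (median log2 0.38, 13 higher with the series term), and of 13 tested fatty acid genes (14 listed) 10 were called higher and 0 lower (median 0.37, 7 with the series term). Insig1, which holds the sterol sensor in the endoplasmic reticulum, rose from 60.7, 62.8 and 65.9 CPM to 118, 128 and 126 (1.96-fold, log2 0.97 ± 0.05, adjusted p = 2.89e-12). Mvd, mevalonate decarboxylase, rose by the same factor, 1.96-fold, and Msmo1, a sterol demethylase component, 1.59-fold. Fasn, fatty acid synthase, went from 606 to 710.4 CPM untreated to 962 to 1114 (1.54-fold), and Acaca, acetyl-CoA carboxylase, was 1.44-fold higher.

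Of 11 tested targets of the liver X receptors, which sense oxysterols, 6 were called higher and 0 lower (14 listed, median log2 0.48, 5 higher with the series term). Abca1, the cholesterol exporter (ENSMUSG00000015243, chr4:53030787-53159895), measured 79.6, 68.8 and 75.5 CPM untreated, 167, 153 and 162 with enzalutamide and 284, 282 and 287 with the pair. The 3 groups were separate, and the pair was 3.81-fold above untreated (log2 1.93 ± 0.07, adjusted p = 5.91e-15). Abcg1, a second sterol exporter at low level, went from 0.417 to 1.10 CPM up to 2.49 to 2.76 (3.16-fold, adjusted p = 3.56e-06), and already stood at 2.2 to 2.42 CPM with enzalutamide. Mylip, the ubiquitin ligase that degrades the LDL receptor, was 1.62-fold higher, and Lpcat3, a phospholipid remodelling enzyme, 1.52-fold.

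NRF2 targets, the electrophile and oxidant defence genes, also rose: 16 of 24 tested (25 listed) were called higher and 0 lower (median log2 0.35, 12 higher with the series term). Nqo1, a quinone reductase, measured 33.3, 30.8 and 26.8 CPM untreated, 37.2, 39.3 and 38.3 with enzalutamide and 81.7, 89.7 and 84.6 with the pair (2.82-fold, log2 1.49 ± 0.08, adjusted p = 1.06e-12). Gsta4, a glutathione transferase for lipid aldehydes, rose from 48.3 to 54.9 CPM to 141 to 164 (2.92-fold, adjusted p = 2.79e-13). Gclc and Gclm, the 2 subunits of the enzyme that limits glutathione synthesis, were 1.84-fold and 1.62-fold higher, and Abcc4, an efflux pump, 1.99-fold. Me1, malic enzyme, was not called (adjusted p = 0.958) and was named after its value was seen. The antioxidant response core TGACNNNGC stood in 10 of 28 windows of the list (35.7%), against 14.2% of windows of genes tested, on either strand. The share was 15.6% among windows of genes called higher and 15% among those called lower. It was 28.6% in the integrated stress response list and 26.1% in the lysosome list. Since the list was assembled from known NRF2 targets, its share was not a test of the drug pair.

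Cyp1a1, the classical target of the aryl hydrocarbon receptor, went from 1.15, 1.22 and 0.657 CPM untreated and 0.824 to 1.03 with enzalutamide to 4.20, 5.70 and 3.71 with the pair (4.41-fold, log2 2.14 ± 0.27, adjusted p = 9.28e-07). The pair libraries were higher than all 6 others. Cyp1b1, in the same family, was 1.82-fold higher, at 43.4 to 43.5 CPM against 21.4 to 26.5. Tiparp, a feedback inhibitor of the receptor, went the other way, 1.36-fold lower (adjusted p = 5.9e-06). Of the 6 listed targets tested (9 listed), 4 were called higher and 1 lower (3 and 1 with the series term).

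**Figure D3:**
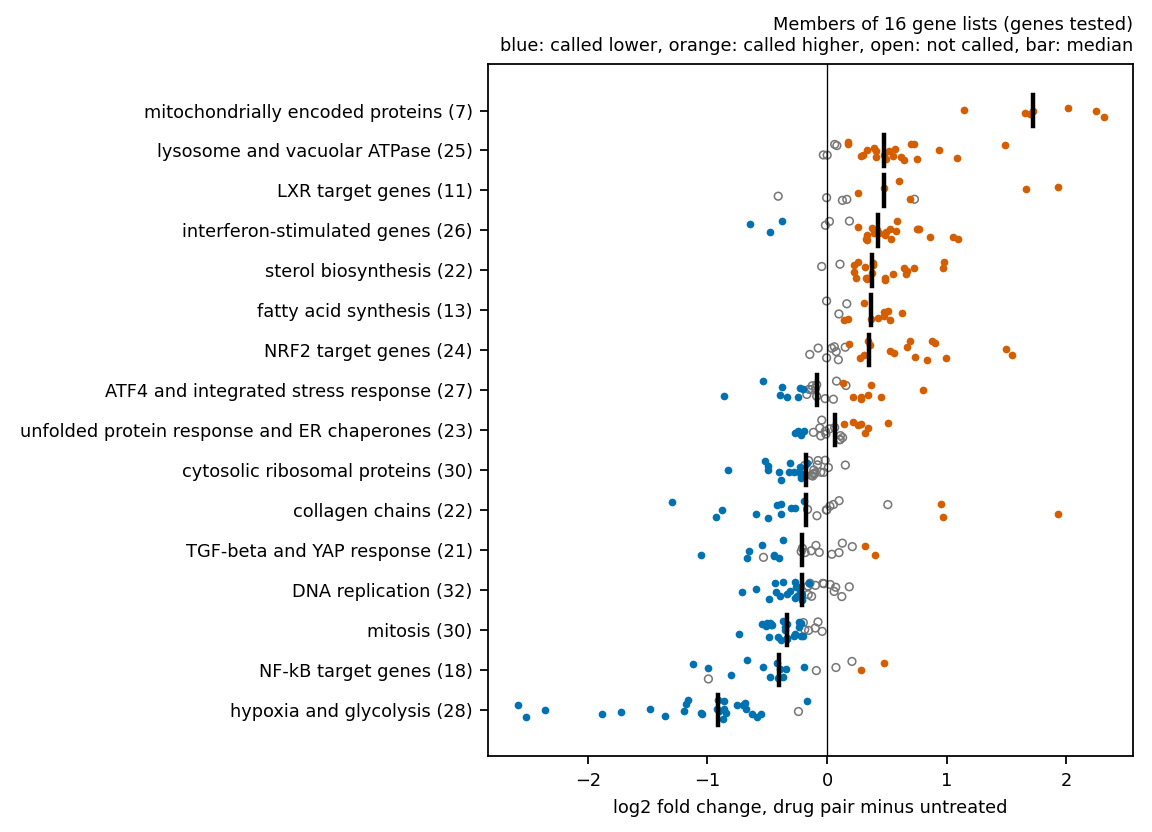
Log2 fold change of the drug pair against untreated co-culture (x axis) for each tested member of 16 gene lists (rows, with the number tested). Each point is a gene, blue where called lower, orange where called higher and open where not called, and the bar is the list median, which runs from -0.91 for hypoxia and glycolysis to 1.72 for mitochondrially encoded proteins.

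Mitosis genes were lower. Of 30 mitosis genes, all tested, 24 were called lower and 0 higher (median log2 -0.33, 15 lower with the series term). The median with enzalutamide alone was 0.0068, with 1 member called lower, and the added step had a median of -0.36. Cdk1, the mitotic kinase, went from 206, 218 and 211 CPM untreated to 152, 146 and 155 (1.40-fold, log2 -0.49 ± 0.05, adjusted p = 1.16e-08), without overlap. Cenpa, the centromeric histone, was 1.66-fold lower and Ube2c, a ubiquitin-conjugating enzyme of mitotic exit, 1.46-fold. Mki67, the proliferation marker, measured 399 to 411 CPM untreated and 326 to 394 with the pair and was not called (log2 -0.19 ± 0.08, adjusted p = 0.0751). It was named after its value was seen. Among 32 DNA replication genes 19 were called lower and 0 higher (median -0.21). With the series term 2 were lower, a share no larger than the 7.23% of all genes called lower in that fit. Rfc4, a clamp loader subunit, was 1.63-fold lower (adjusted p = 1.61e-06, or 0.104 with the series term), and Mcm6, part of the replicative helicase, 1.2-fold lower (adjusted p = 4.88e-05). Ccnd1, cyclin D1, fell from 464 to 508 CPM to 320.4 to 349.7 (1.48-fold, adjusted p = 2.08e-08).

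Genes of inflammatory signalling went both ways. Of 18 tested NF-kB targets (22 listed), 12 were called lower and 2 higher (median log2 -0.40, 8 lower and 1 higher with the series term), while of 26 interferon-stimulated genes, all tested, 20 were called higher and 3 lower (median 0.43, 11 higher and 1 lower with the series term). Tnfaip3, the ubiquitin-editing inhibitor A20, went from 22.3, 24.2 and 23.8 CPM untreated to 11.8, 10.2 and 10.2 (2.18-fold, log2 -1.12 ± 0.09, adjusted p = 4.62e-10). Traf1, a signalling adaptor, was 1.99-fold lower, Nfkbia, the inhibitor of the pathway, 1.39-fold, and Csf1, the macrophage growth factor, 1.33-fold. Ptgs2, cyclooxygenase 2, was 1 of the 2 members called higher, 1.39-fold (adjusted p = 2.92e-06). On the interferon side, Ifit3 went from 130.3, 121 and 120.4 CPM untreated to 161, 206 and 184 with enzalutamide and 228, 291 and 272 with the pair (2.13-fold, log2 1.09 ± 0.09, adjusted p = 5.8e-10). Ifit1, another RNA-binding antiviral protein, was 2.08-fold higher, Oasl2 1.82-fold and Stat2, which carries the interferon signal, 1.70-fold. Cxcl10, an interferon-induced chemokine, was 1.56-fold lower (adjusted p = 3.86e-05, or 0.211 with the series term). Cxcl10 was named after its value was seen. Il6 had 1 to 7 counts in each of the 9 libraries and was not tested.

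**Figure D4:**
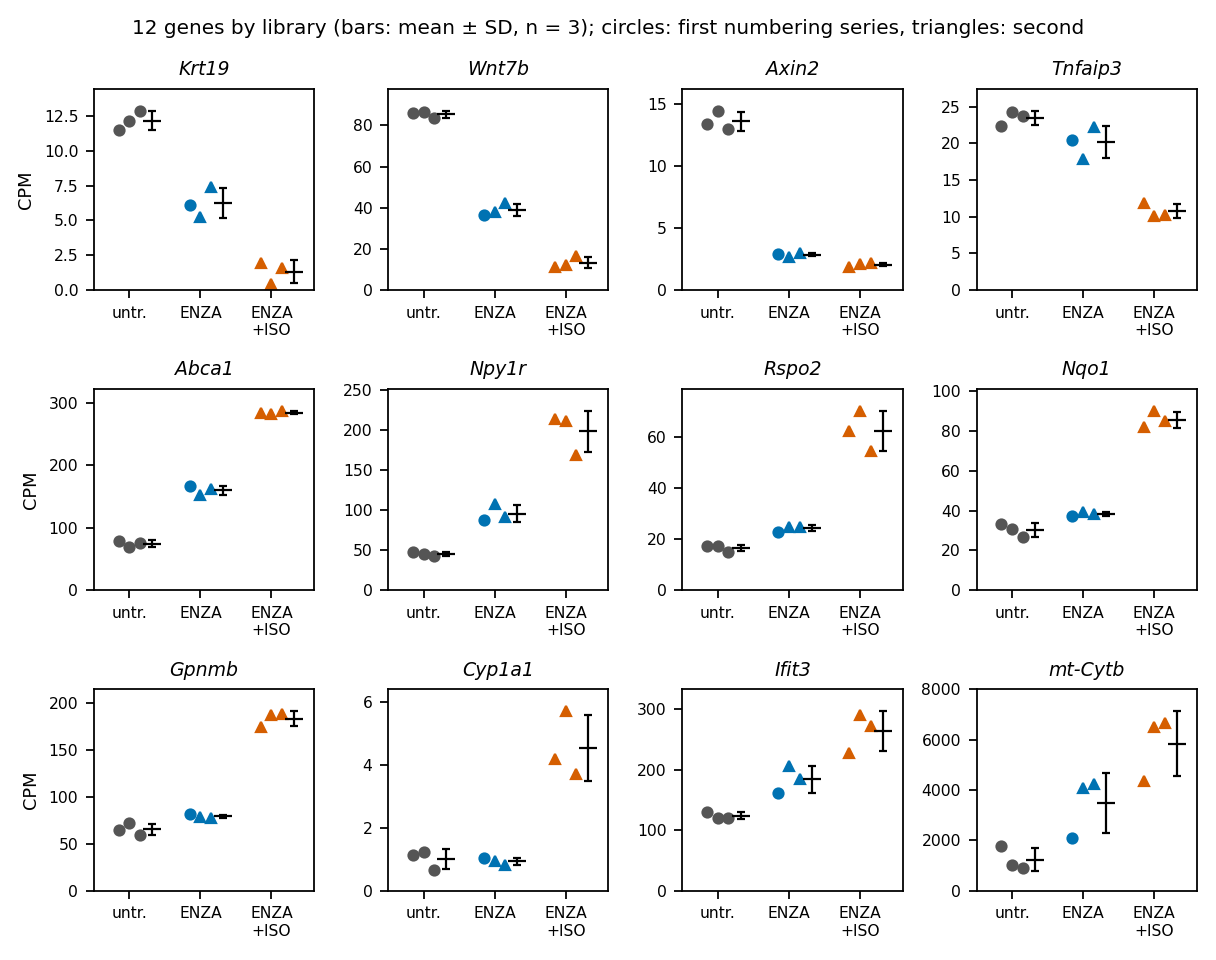
CPM (y axes, linear from 0) of 12 genes in each library of untreated (untr.), enzalutamide (ENZA) and drug-pair (ENZA+ISO) co-culture, with mean ± SD beside the points and the 2 numbering series as circles and triangles. The pair and untreated libraries do not overlap in any panel, as in 50.5% of all genes tested. The genes were chosen by large change without overlap or by smallest p within a list. In mt-Cytb the enzalutamide circle (2100.2 CPM) lies below both triangles.

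Wnt pathway genes moved in both directions. Axin2, a negative regulator that reports canonical Wnt signalling, measured 13.3, 14.4 and 12.9 CPM untreated, 2.94, 2.70 and 2.96 with enzalutamide and 1.9, 2.12 and 2.15 with the pair (6.62-fold lower, log2 -2.73 ± 0.15, adjusted p = 3.98e-12). Most of the fall was already present with enzalutamide, and the added step was not called (log2 -0.49, adjusted p = 0.0691). Wnt7b, a Wnt ligand, fell in both steps, from 86.2, 86.5 and 83.5 CPM to 36.4, 38 and 42.3 and then to 11.2, 12.3 and 16.5 (6.42-fold in all, log2 -2.68 ± 0.11, adjusted p = 1.8e-14). Rspo2, a secreted amplifier of Wnt signalling, rose from 15.2 to 17.4 CPM to 54.8 to 70.2 (3.75-fold, adjusted p = 2.89e-12). Dkk2, a modulator of the Wnt co-receptor, was 1.27-fold higher (adjusted p = 0.000103, or 0.0558 with the series term). Lgr5, a receptor for R-spondins, was 2.00-fold lower (adjusted p = 0.000116, or 0.673 with the series term). Of the 13 tested feedback targets (20 listed), 4 were called higher and 6 lower, beside 19.2% and 19.9% of all genes, and with the series term 1 was higher and 3 lower.

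Among BMP genes 8 of 17 tested (20 listed) were called higher and 4 lower, beside 19.2% and 19.9% of all genes tested. Under the series term 2 went each way, beside 6.37% higher and 7.23% lower of all genes. The antagonists went opposite ways: Grem1 rose from 668, 668 and 644 CPM to 1394, 1419 and 1336 (2.10-fold, log2 1.07 ± 0.05, adjusted p = 3.45e-13), and Nog fell from 5.71 to 7.50 CPM to 1.24 to 1.58 (4.81-fold, adjusted p = 1.42e-09). Id2, a helix-loop-helix target of the pathway, rose from 6.47 to 7.70 CPM to 13.7 to 19.5 (2.39-fold, adjusted p = 8.47e-08). In the TGF-beta and YAP list, 8 of 21 were called lower and 2 higher (7 and 1 with the series term), beside the same shares of all genes. Tgfb3, a ligand, was 1.57-fold lower, by log2 -0.62 with enzalutamide and -0.03 in the added step.

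Matrix and mesenchymal genes went both ways. Of 22 tested matrix glycoproteins and proteoglycans (25 listed) 11 were called higher and 8 lower (7 higher and 6 lower with the series term). Over all genes tested the shares were 19.2% higher and 19.9% lower, or 6.37% and 7.23% with the series term. Of 22 collagen chains 11 were called lower and 3 higher (median log2 -0.18, 6 lower and 3 higher with the series term). Col1a1, the main fibrillar chain, went from 11104, 10751 and 10165 CPM to 6837, 7199 and 7168 (1.51-fold lower, adjusted p = 5.15e-09), while Col12a1, a chain that coats collagen fibrils, rose from 261 to 280.1 CPM to 505 to 549 (1.94-fold, adjusted p = 9.62e-12). Dpt, dermatopontin, fell from 74.2, 83.9 and 75.7 CPM to 18.8, 18.0 and 17.1 (4.34-fold, log2 -2.12 ± 0.10, adjusted p = 2.79e-13). Vim, vimentin, was 1.93-fold lower, Dcn, decorin, 1.99-fold and Thy1 1.65-fold. Sparcl1, a relative of Sparc, rose from 36.8 to 41.1 CPM to 116 to 121 (3.00-fold, adjusted p = 1.8e-13). Of 17 tested fibroblast markers 9 were called lower and 2 higher, and the summed level of the 20 listed was 41608 to 43309 CPM untreated, 38656 to 40148 with enzalutamide and 31175 to 32507 with the pair, with T23 cells alone at 42051 to 43408. The 12 endothelial markers summed to 93.0 to 100.5 CPM untreated and 39.3 to 48.6 with the pair. Most of it came from Flt1, a VEGF receptor, which went from 79.7 to 86.2 CPM to 26.4 to 36.3 (2.54-fold lower, adjusted p = 2.04e-11). The list as a whole did not fall: of its 5 tested members 2 were called lower and 1 higher. Their median log2 fold change was 0.01, with a range of -1.35 to 1.11. The part of these markers in the changes of other genes was not tested. In bulk RNA, fewer cells of a type and less RNA per cell cannot be told apart.

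Krt19, a keratin of simple epithelia, had the largest decrease among the named genes with a mean of at least 5 CPM. It measured 11.5, 12.1 and 12.8 CPM untreated, 6.12, 5.25 and 7.42 with enzalutamide and 1.97, 0.414 and 1.60 with the pair (8.77-fold lower, log2 -3.13 ± 0.22, adjusted p = 7.51e-11). Krt7, another keratin of simple epithelia, fell from 11.8 to 13.6 CPM to 2.85 to 3.46 (4.09-fold, adjusted p = 3.17e-12), and with enzalutamide alone, at 9.70 to 11.4 CPM, it was not called (adjusted p = 0.171). The summed level of the 18 luminal epithelial markers, 4 of them tested and 2 called lower, was 27.7 to 29.2 CPM untreated, 18.5 to 22.9 with enzalutamide and 6.94 to 9.19 with the pair. The other large decreases were H19, an imprinted long noncoding RNA (5.88-fold), Tnfrsf9, the co-stimulatory receptor 4-1BB (5.03-fold), Atp2b4, a plasma membrane calcium pump (4.17-fold), Siglecg, a sialic acid-binding lectin (3.95-fold), and Plac1, a placental gene (3.87-fold). Of the large increases, Npy1r, a neuropeptide Y receptor, went from 47.5, 45.4 and 42.7 CPM to 88.0, 109 and 91.4 with enzalutamide and 215, 212 and 169.7 with the pair (4.40-fold, adjusted p = 4.68e-12). Rgs2, an inhibitor of G protein signalling, was 4.28-fold higher, Cdh6, a cadherin, 4.14-fold, and Smoc2, a matrix protein of the Sparc family, 3.43-fold, the last from 2.83 to 2.97 CPM to 8.35 to 11.1. Each of these decreases and increases was also called with the series term.

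Sparc and Hspa5 differed by small factors. Sparc itself measured 3049.5, 3092 and 3067 CPM untreated, 2586, 2797 and 2799.9 with enzalutamide and 2821, 2789.8 and 2738 with the pair, 1.10-fold lower (log2 -0.14 ± 0.05, adjusted p = 0.0174). The pair and enzalutamide ranges overlapped. The call was lost without untreated replicate 2 (adjusted p = 0.0521), without drug-pair replicate 3 (0.0544), with no filter (0.07) and with library totals (0.504). Hspa5, which encodes GRP78, went from 1477, 1532 and 1526 CPM to 1369, 1272 and 1318 (1.15-fold lower, log2 -0.20 ± 0.05, adjusted p = 0.00325, or 0.452 with the series term and 0.296 with library totals). Of 23 tested genes of the unfolded protein response (24 listed), 7 were called higher and 4 lower (median log2 0.06). The shares over all genes tested were 19.2% and 19.9%. Under the series term 2 were higher and 0 lower, beside 6.37% and 7.23% of all genes. Dnajb11, a co-chaperone of GRP78, was 1.27-fold higher (adjusted p = 1.27e-05), and Xbp1, a transcription factor of that response, 1.21-fold lower (adjusted p = 0.000202, or 0.154 with the series term). Among 27 tested genes of the integrated stress response (30 listed), 8 were called higher and 8 lower (median -0.09), with 0 higher and 4 lower under the series term. The same shares over all genes stand beside these counts.

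Of 13 tested genes in the androgen list (20 listed), 4 were called higher and 3 lower (median log2 0.02). These counts stand beside 19.2% and 19.9% of all genes tested. With the series term 3 were higher and 2 lower, beside 6.37% and 7.23%. Fkbp5, a co-chaperone induced by androgens, was 1.49-fold lower, and Mme, a membrane peptidase, 2.28-fold higher (31.4, 33.2 and 30.9 CPM against 75.8, 78.8 and 63.5). The prostate-restricted gene Pbsn had 0 counts in each of the 9 libraries. Of the neuroendocrine markers, 15 of the 26 listed did not pass the filter on low counts. Of the 11 tested, 4 were called lower and 0 higher, beside 19.9% and 19.2% of all genes tested. With the series term 2 were lower and 0 higher, beside 7.23% and 6.37%. Aurka, among the 4 called, is also in the mitosis list. Chga had 0 counts in each library, which allows up to 0.159 CPM at these depths for counting error alone, and Syp 0 to 4 counts. Ncam1 fell from 117 to 131 CPM to 81.5 to 96.9 (1.40-fold, adjusted p = 1.14e-05). Mycn fell from 11.3, 10.6 and 11.6 CPM to 3.98, 3.31 and 4.80 (2.75-fold, log2 -1.46 ± 0.11, adjusted p = 4.62e-10). Eno2 was not called (1.04-fold, adjusted p = 0.62).

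Mitochondrially encoded genes were higher, and their levels also varied between replicates within each group. All 7 tested (13 listed) were called higher, with a median log2 of 1.72, while the other 6 are listed at 0 counts in each of the 9 libraries. mt-Cytb, cytochrome b, measured 1762, 1014 and 918 CPM untreated, 2100.2, 4080.4 and 4246 with enzalutamide and 4358, 6489 and 6665 with the pair (4.74-fold, log2 2.25 ± 0.28, adjusted p = 9.29e-07). Within the enzalutamide group, replicate 1 of the first series was lower than replicates 2 and 3 of the second. With the series as a term, 3 of the 7 were called, and mt-Cytb stood at log2 1.26 (adjusted p = 0.0569). The mitochondrial genome took 1.34, 0.857 and 0.853% of counts untreated, 1.55, 2.71 and 2.70% with enzalutamide, and 2.80, 3.68 and 3.77% with the pair. Replicate 1 thus stood apart also in the untreated and drug-pair groups, each of which lies within a single series. The largest increase among named genes, the pseudogene Rps24-ps3, went from 1.45 to 1.82 CPM to 7.64, 7.59 and 11.8 (5.43-fold), but measured 1.45 CPM in enzalutamide replicate 1 against 9.20 and 6.5 in replicates 2 and 3. With the series term Rps24-ps3 differed by log2 0.01 (adjusted p = 0.994). It shares sequence with the ribosomal protein gene it copies, so its count is uncertain. Cytosolic ribosomal protein genes were lower in 15 of 30 and higher in 0, beside 19.9% of all genes called lower. With the series term 2 were lower, a share no larger than the 7.23% of all genes.

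Few genes that enzalutamide moved in co-culture went back to the untreated level. By enzalutamide alone, 185 genes were called and moved at least 1.5-fold (1.36% of those tested), 115 of them lowered and 70 raised. In this contrast too, the drug cannot be told apart from a possible difference in fibroblast source. Enzalutamide replicates 2 and 3 also belong to the second numbering series, unlike the untreated libraries. A difference of either kind shared by both drug groups would be counted as moved by enzalutamide. A gene was taken as returned where added isoliquiritigenin was called in the opposite direction and the 95% interval of the drug pair against untreated lay within 1.3-fold either way, which is 0.379 on the log2 scale. Only 5 genes (2.7%) met this, all among the lowered ones. By contrast 97 (52.4%) were classed as held, that is, still called in the enzalutamide direction with no call in the added step, and 61 (33%) went further in that direction. The class of held genes does not show an unmoved level, since 12 of the 97 shifted by at least 1.5-fold in the added step without a call, mt-Nd4 among them. Another 3 went part of the way back, 1 overshot to the other side of the untreated level, and 18 were unresolved. Of the unresolved, 10 were called in the opposite direction in the added step, but their intervals were wider than the margin. Since all 3 contrasts use the same 9 libraries and genes were selected on the enzalutamide contrast, these counts describe the libraries and are not tests of reversal. The number returned was 1 to 6 when 1 of the 9 libraries was left out, 1 without drug-pair replicate 1 and 2 without untreated replicate 1 or 3, and 0 with the series as a term.

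The 5 returned genes were Tpd52l1, Dock8, Slc6a17, Ephb2 and Kdr. Tpd52l1, a coiled-coil relative of tumour protein D52, measured 6.25, 5.58 and 5.46 CPM untreated, 2.9, 3.40 and 3.05 with enzalutamide and 5.56, 6.12 and 4.97 with the pair. Its interval for the pair against untreated ran from -0.34 to 0.23 on the log2 scale. Dock8, a guanine nucleotide exchange factor of cell migration, went from 6.68 to 8.19 CPM to 4.22 to 4.6 and back to 7.07 to 9.01, with an interval of -0.18 to 0.32. Ephb2, an ephrin receptor, went from 11.5 to 14.0 CPM to 7.95 to 8.46 and to 12 to 15.2. Slc6a17, a vesicular amino acid transporter, went from 6.40 to 8.33 CPM to 4.00 to 4.61 and to 6.64 to 7.82. Kdr, the main VEGF receptor, went from 4.05 to 4.48 CPM to 2.33 to 2.75 and to 4.21 to 4.37. It lies below the level set for naming and is given because the class is small. In all 5 the enzalutamide libraries lay below the other 6, and the drug-pair range overlapped the untreated one. The return rule selects genes with this pattern, so it adds no evidence of return. All are at under 16 CPM, and the upper bound for Ephb2 (0.37) was the closest to the margin.

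Partial return was seen in Apcdd1, a Wnt inhibitor, which went from 60.9, 53.6 and 64.0 CPM to 28.2, 31.7 and 33.3 and back to 41.9, 49.1 and 39.8, and in Adam12, a membrane metalloprotease, from 35.4 to 40.7 CPM to 20.5 to 22.1 and to 29.7 to 33.9. Against untreated, Adam12 was called with the pair (adjusted p = 0.01), but not with the series term (adjusted p = 0.132), without untreated replicate 2 (0.0749) or without drug-pair replicate 2 (0.0592). Scn7a, a sodium channel raised by enzalutamide from 2.03 to 2.75 CPM to 5.87 to 6.60, came down to 3.75 to 4.27 (pair against untreated adjusted p = 0.00268, or 0.0793 with the series term). Ankrd44, a regulatory subunit of a phosphatase, went from 2.44 to 2.86 CPM to 1.16 to 1.65 and overshot to 3.37 to 4.05 (adjusted p = 0.00858, or 0.499 with the series term). Scn7a and Ankrd44 also lie below the level for naming. Among the genes classed as held, Gap43, a growth cone protein, stayed at 2.53 to 2.99 CPM with the pair against 6.48 to 8.02 untreated and 2.52 to 4.22 with enzalutamide. Fgl2, a secreted fibrinogen-like protein, stayed at 10.1 to 10.7 CPM against 4.40 to 4.74 untreated, and Dhrs3, a retinal reductase, at 20.3 to 20.8 CPM against 10.5 to 13.0. Axin2 was in this class as well, whereas Wnt7b, H19, Abca1, Npy1r and Sparcl1 went further.

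**Figure D5:**
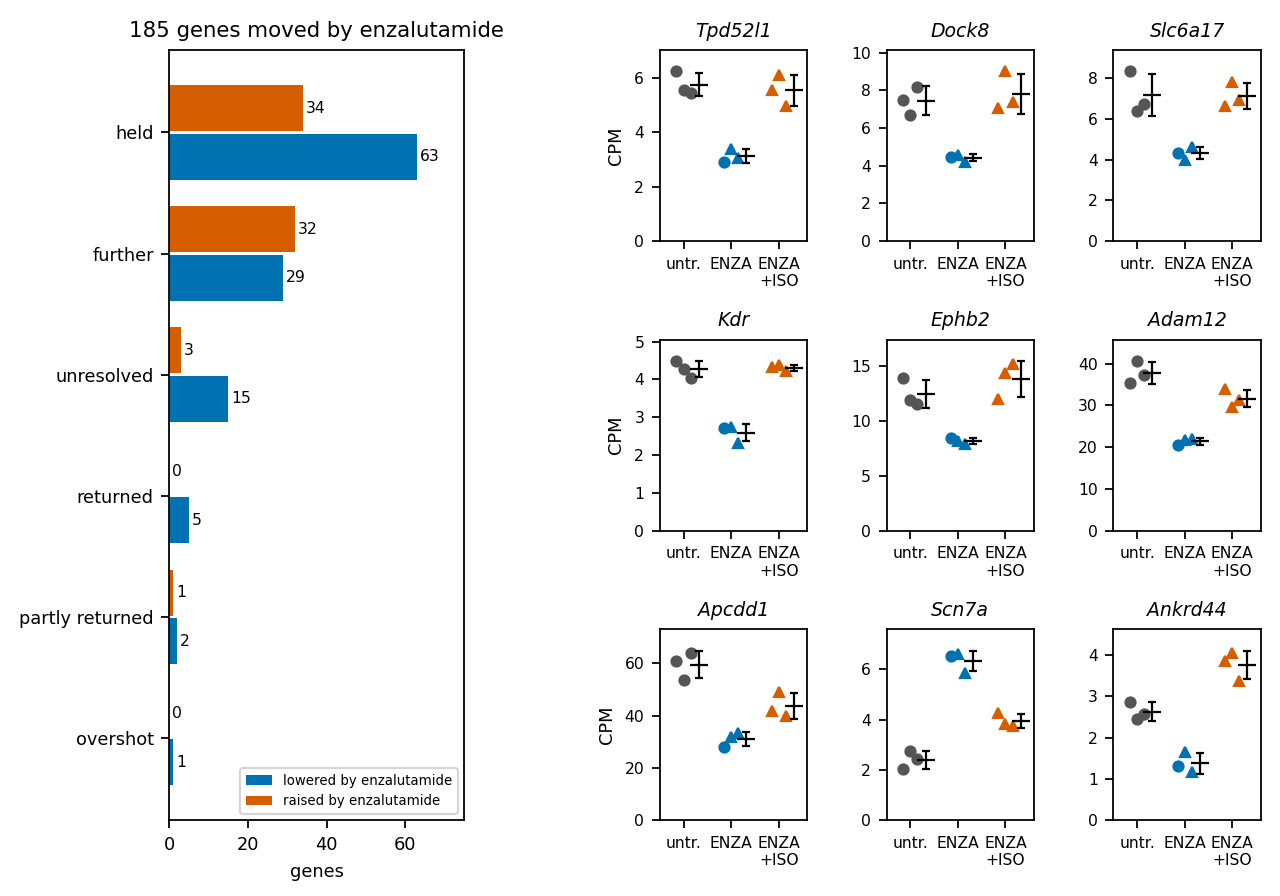
Left, number of the 185 genes moved by enzalutamide in each class after isoliquiritigenin was added (bars, genes lowered and raised by enzalutamide). Right, CPM by library (mean ± SD, n = 3, circles and triangles for the 2 numbering series) of the 5 returned genes, Adam12, Apcdd1 and Scn7a, which returned in part, and Ankrd44, which overshot.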

How the data were processed

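RNA was sequenced from polyA-selected, stranded TruSeq libraries, per the labels' protocols. The authors deposited 1 table of raw read counts per gene for each library, holding whole numbers that differ in total between libraries. Per the submitters' processing notes, the tools were STAR 2.6.1d and featureCounts 2.0 with GRCm38, besides cutadapt 2.9, DESeq2, FastQC 0.11.9 and bcl2fastq 2.20.0.422. The annotation release and the strand setting of the counting are not given in the sources used here. Each table lists 55487 genes, of which 260 had no symbol in the reference and held 0.00552% of counts.

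Counts were analysed in R 4.3.3 with edgeR 4.0.16 and limma 3.58.1. All 18 libraries in 6 groups were fitted together, which leaves 12 residual degrees of freedom. Genes were filtered with filterByExpr (minimum count 10), scaled by TMM, tested by the quasi-likelihood F-test and adjusted by Benjamini-Hochberg over 13600 genes at 0.05. CPM values use TMM-scaled totals, and SE was derived from the fold change and F. The biological coefficient of variation was 7.03%. Replicates differed by more than sampling noise (chi-square per degree of freedom 3.73 to 12.1), so none was merged. Same-numbered replicates did not deviate together (r -0.0638 to 0.0982). Alternatives were DESeq2 1.42.0, other scaling, no filter, smaller sets of groups, left-out libraries, a replicate block and the numbering series as a term. The scripts were tested on simulated data.

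The comparison, gene lists and return rule were chosen with earlier results of these data known. Named genes were Sparc, Hspa5, Il6, Syp, Chga, Eno2, Ncam1 and Axin2, the 12 largest called increases and decreases (at least 5 CPM on average, groups not overlapping, no numbered gene models), up to 5 called members of each list by smallest p, and up to 8 of each return class by enzalutamide change. A few genes that these rules name are not reported here. Promoter letters came from RefSeq windows on GRCm38.p6.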

Additional observations from a re-analysis of the deposited data

How the results depend on the processing

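Against 5324 called genes, RLE scaling gave 5326, DESeq2 5047, no filter on low counts 4968, the 3 co-culture groups alone 5446, and the compared pair of groups alone 5484. Leaving out 1 of the 9 co-culture libraries gave 4365 to 5389 called genes and 1 to 6 returned genes. Without replicate 2 of T23 cells with enzalutamide, which has no fibroblasts, 5931 were called, and 220 were moved by enzalutamide. With library totals in place of TMM, 2617 genes were called, 1441 higher and 1176 lower, with 1 returned and 62 held. With the numbering series as a term, 866 genes rose and 983 fell (1849 in all), with 393 past 2-fold, and of 99 genes moved by enzalutamide 43 went further, 39 held and 0 returned, so that further outnumbered held, unlike without the term. For both settings the cause was not tested, beyond the larger standard errors of the series fit. The TMM factors of the 6 compared libraries ran from 1.02 to 1.04. Replicate 2 of T23 cells with enzalutamide, at 0.685, also enters the shared spread, and library totals leave it unscaled. Under library totals Sparc stood at log2 -0.13 and Hspa5 at -0.18. DESeq2 returned 2 genes. A margin of 1.2-fold returned 0 and one of 1.5-fold 9. With at least 2-fold for enzalutamide, 79 genes were moved, 49 held, 20 went further and 0 returned. With the replicate number as a block, 5246 genes were called and 4 returned, and no count moved by over 1.5 times. Of the named genes, library totals also ended the calls of Mcm6 (adjusted p = 0.121), Xbp1 (0.089), Adam12 (0.211), Hif1a (0.132) and Itga5 (0.0581). The numbers were not shown to pair the libraries, as no pair of same-numbered replicates correlated above 0.0982. Low counts limit the neuroendocrine and epithelial markers, most of which were not tested, and the returned genes, all of which lie under 16 CPM.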

Other observations

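Some gene groups not described above had named members that changed. Among 15 tested integrins, 5 were called lower and 1 higher with the drug pair, a share close to the 39.1% of all genes called (median log2 -0.11, 4 lower and 1 higher with the series term). Itga6, a laminin-binding subunit, went from 138, 144 and 146 CPM untreated to 81.1, 70.3 and 89.4 (1.78-fold lower, adjusted p = 4.61e-10 in edgeR's quasi-likelihood test), while its enzalutamide libraries at 140.1 to 142 lay inside the untreated range. Itga7, which binds the same kind of ligand, was 1.98-fold lower, and the fibronectin receptor subunit Itga5 1.26-fold lower. Itga8 was the member called higher, 1.40-fold (adjusted p = 7.19e-05). Among matrix proteases and their inhibitors, 6 of 15 were called higher and 7 lower (3 and 4 with the series term). Over all genes tested the shares were 19.2% higher and 19.9% lower, or 6.37% and 7.23% with the series term. Mmp14, a membrane protease that activates the gelatinase Mmp2, rose from 564 to 625 CPM to 938 to 1000.2 (1.60-fold), and Mmp2 from 331 to 358 CPM to 523 to 535 (1.53-fold), whereas Mmp9, the other gelatinase, fell from 86.8 to 98.6 CPM to 63.3 to 64.6 (1.46-fold).

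Of 17 circadian clock genes 6 were called lower and 2 higher (4 lower and 1 higher with the series term). For this list and those that follow, the shares over all genes were 19.2% higher and 19.9% lower. With the series term they were 6.37% and 7.23%. Bhlhe40 and Bhlhe41, repressors of the clock that are also induced by hypoxia, were 1.83-fold and 1.67-fold lower, and Hlf, a clock output factor, was 1.44-fold higher. Among 21 immediate-early genes 11 were called higher and 4 lower, with 3 higher and 1 lower under the series term. Egr1, an early growth response factor, rose from 65.9 to 76.0 CPM untreated to 101 to 119.5 with enzalutamide and 133 to 151 with the pair (1.98-fold, adjusted p = 7.4e-10), so that the 3 groups did not overlap. Of 17 cytosolic chaperones 9 were called higher and 1 lower, 3 higher with the series term. Hsph1, a co-chaperone of HSP70, was 1.34-fold higher, and Cryab, a small heat shock protein, rose from 5.66 to 7.14 CPM to 11.6 to 13.9 (1.86-fold, adjusted p = 2.03e-06).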
